A study of Mus musculus with 10 samples.

Results

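Nascent transcription was followed for 10 autosomal genes of glycolysis and of the response to low oxygen: Slc2a1, Slc2a3, Hk2, Pfkp, Ldha, Eno1, Pgam1, Aldoa, Pdk1 and Bnip3. They were chosen by name from these pathways, with earlier results of these data known, and are 10 of the 24386 genes in each table. All 10 were present in every sample and passed the filter on low counts, which left 14525 genes for testing. Nascent RNA was measured by TT-seq, in which a 5 min pulse of 4-thiouridine (4sU, 0.5 mM) marks RNA made during the pulse. The cells were TX1072, a single female mouse embryonic stem cell line from a cross of Mus musculus castaneus (Cast) and C57BL/6 (B6), grown in serum with LIF and 2 inhibitors (2i). In this line doxycycline (DOX) switches on the endogenous Xist gene on the B6 X chromosome. The 5 groups were 0h, 4h, 8h, 12h and 24h of DOX at 1 µg/ml, with the same wild-type TX1072 genotype and 2 replicates each, 10 samples in all. Cells were plated in T75 flasks and DOX was added after 24 h of culture. No cells kept without DOX for the same hours were part of the comparison, so hours of DOX, hours in culture and cell density cannot be told apart.

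Cells take up glucose through transporters of the Slc2a family and split it into pyruvate by glycolysis. Pyruvate either enters mitochondria or is turned into lactate. When oxygen falls, the transcription factor HIF1 is no longer degraded. It then binds a short motif, the hypoxia response element, near genes of glucose uptake, glycolysis and mitophagy and raises their transcription. Mouse embryonic stem cells in culture rely strongly on glycolysis, and dense cultures consume oxygen and glucose faster.

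Promoter sequences are shown for the 3 genes that passed the test against 0h once the replicate number was a term in the model. The 250 bases before the RefSeq start site are written 5′ to 3′ on the gene's strand, and capitals mark the letters ACGTG or GCGTG, the core of the hypoxia response element, and their reverse complements CACGT and CACGC.
Bnip3 promoter (mm10, chr7:138909507-138909756, minus strand): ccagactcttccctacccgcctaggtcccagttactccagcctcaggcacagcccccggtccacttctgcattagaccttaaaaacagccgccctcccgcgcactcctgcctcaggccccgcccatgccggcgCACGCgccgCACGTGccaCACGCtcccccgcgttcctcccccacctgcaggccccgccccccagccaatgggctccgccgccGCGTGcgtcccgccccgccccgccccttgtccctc
Ldha promoter (mm10, chr7:46845554-46845803, plus strand): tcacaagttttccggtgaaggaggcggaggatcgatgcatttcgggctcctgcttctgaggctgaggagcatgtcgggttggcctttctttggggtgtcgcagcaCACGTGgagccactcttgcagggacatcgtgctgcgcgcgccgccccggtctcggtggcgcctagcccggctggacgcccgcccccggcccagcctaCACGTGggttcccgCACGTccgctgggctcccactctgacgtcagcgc
Pdk1 promoter (mm10, chr2:71872974-71873223, plus strand): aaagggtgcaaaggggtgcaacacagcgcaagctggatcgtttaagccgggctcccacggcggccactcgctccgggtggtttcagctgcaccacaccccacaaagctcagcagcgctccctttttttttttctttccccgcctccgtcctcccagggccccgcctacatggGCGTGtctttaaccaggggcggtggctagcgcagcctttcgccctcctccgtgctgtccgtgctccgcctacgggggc
Bnip3 held 5 matches and Ldha held 5, some of which overlap in the palindrome CACGTG (1 in Bnip3, 2 in Ldha), and Pdk1 held 1. RefSeq windows at the deposited start were found for 9 of the 10 genes, Slc2a3 being the exception. Of these, 8 held a match, as did 38.6% of the 32851 RefSeq mouse promoter windows of this length. Pfkp and Pgam1 held 3 matches each, and Slc2a1, Hk2 and Eno1 held 2 each. The window of Aldoa held none. The windows of Aldoa, Ldha and Eno1 lay wholly inside the gene as GENCODE annotates it, with a start further upstream. Windows with 5 or more matches made up 1.01% of all windows. Each of the marked runs of letters holds CG. The 8 windows with a match were 62.8% to 72.4% G or C, and that of Aldoa was 50.4%. The shares over all windows were not matched for base content, and the 10 genes were chosen by name from these pathways. A match is a run of letters only, and no binding was measured here.

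Total counts ran from 18809046 to 22274929 per sample, and the 10 genes together took 0.218% to 0.25% of them. Xist had 31 and 32 counts at 0h and 6348 to 14211 counts in the 8 samples with DOX, which checks the induction. Of 8 naive stem cell markers, 7 were transcribed (summed level 2690 to 2960 CPM, the read count scaled to a common library size). The remaining marker, Sox2, had 0 counts in every sample. Whether it was silent or its reads were not assigned to it cannot be told from the counts. The 5 formative or primed markers summed to 125 to 157 CPM (means of 139 to 148 CPM at 0h, 4h, 12h and 24h). Dnmt3b alone had 109.4 to 146.7 CPM, so this sum says little about the rest. Among them Otx2 had 5.98 ± 0.0842 CPM at 0h and 3.34 ± 0.0358 CPM at 24h (SD, n = 2). From 0h to 24h the means of T (7.91 to 5.98 CPM) and Pou3f1 (2.33 to 1.81 CPM) also fell. Those of Dnmt3b (121.5 to 127.9 CPM) and Fgf5 (1.04 to 1.25 CPM) rose. Markers of primitive endoderm summed to 2.75 to 4.21 CPM and of fibroblasts or feeder cells to 3.1 to 6.38 CPM, and among these Postn had 0 counts throughout. The replicates at 0h differed more than the other pairs (their counts gave a chi-square of 9.14 per degree of freedom, against 4.37 to 4.98). The paper calls its duplicates biological, but no source used here says whether they were separate cultures, so the p-values measure the spread between these samples.

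Per kilobase of gene span, the 10 genes fell into an order that spanned more than an order of magnitude. Eno1, the enolase of lower glycolysis, was highest at 34.6 to 40.3 CPM per kb over the 10 samples. Slc2a3, the neuronal-type glucose transporter GLUT3, had 25.2 to 28.8 CPM per kb, and Aldoa, the aldolase that splits the phosphorylated sugar, had 20.1 to 28.6 CPM per kb. The ranges of Slc2a3 and Aldoa overlapped. Pgam1, phosphoglycerate mutase, followed at 13.9 to 17.1 CPM per kb and Slc2a1, the widely used glucose transporter GLUT1, at 9.21 to 12.3 CPM per kb. Ldha, which makes lactate from pyruvate, had 6.71 to 9.11 CPM per kb, a range that held that of Hk2 (7.49 to 8.45 CPM per kb), the hexokinase that traps glucose in the cell. Pfkp, a phosphofructokinase of the committed step, had 5.57 to 6.36 CPM per kb. Pdk1, the kinase that inhibits pyruvate dehydrogenase and so keeps pyruvate from becoming acetyl-CoA, and Bnip3, a mitophagy receptor, were far lower, with overlapping ranges of 0.969 to 1.67 and 0.875 to 1.69 CPM per kb. Pdk1 and Bnip3 lay at the 57.2th and 53.8th percentile of all tested genes on this scale, and the other 8 at the 92.1th or above. Counts covered whole gene spans of 5.2 to 68.9 kb, introns included, of which 9.9% to 51.1% was annotated as exon.

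**Figure D1:**
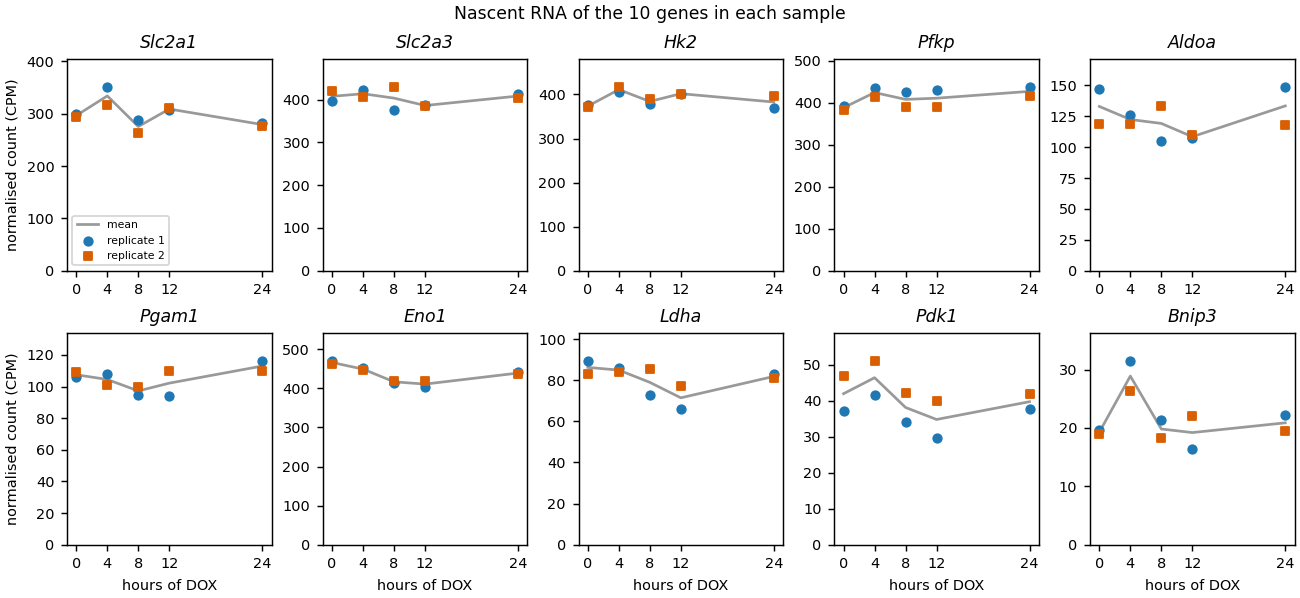
Normalised nascent counts (CPM, vertical axis from 0) of the 10 genes against hours of DOX, with 1 point per sample and a line through the mean of the 2 replicates. Bnip3 stood at 31.5 and 26.2 CPM at 4h against 16.3 to 22.2 CPM in the other 8 samples, while Hk2 stayed between 370.2 and 417.6 CPM throughout.

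Against 0h, 0 of the 10 passed an adjusted p of 0.05 at any time in the edgeR quasi-likelihood test with a term for time. The percent of all genes called was 0.0138 (4h), 0.193 (8h), 0.95 (12h) and 1.85 (24h). DESeq2 and limma-voom also called 0 of the 10 against 0h at each time. At an unadjusted p under 0.05 there were 2 genes at 4h (Bnip3 and Slc2a1), 1 at 8h (Eno1), 3 at 12h (Aldoa, Eno1 and Ldha) and 0 at 24h, where 2.09%, 4.06%, 11.5% and 10.3% of all genes passed. Same-numbered replicates deviated together across times, and with the replicate number as a block edgeR called Bnip3 at 4h and Ldha and Pdk1 at 12h (percent of all genes called with the block: 0.0344, 0.744, 4.94 and 5.32 in the order of the times). By 24h the log2 changes ran from -0.09 (Slc2a1) to 0.14 (Pfkp), with 95% intervals that lay between -0.40 and 0.42 for all 10 genes. In a bulk sample, fewer cells transcribing a gene and less transcription per cell cannot be told apart.

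**Figure D2:**
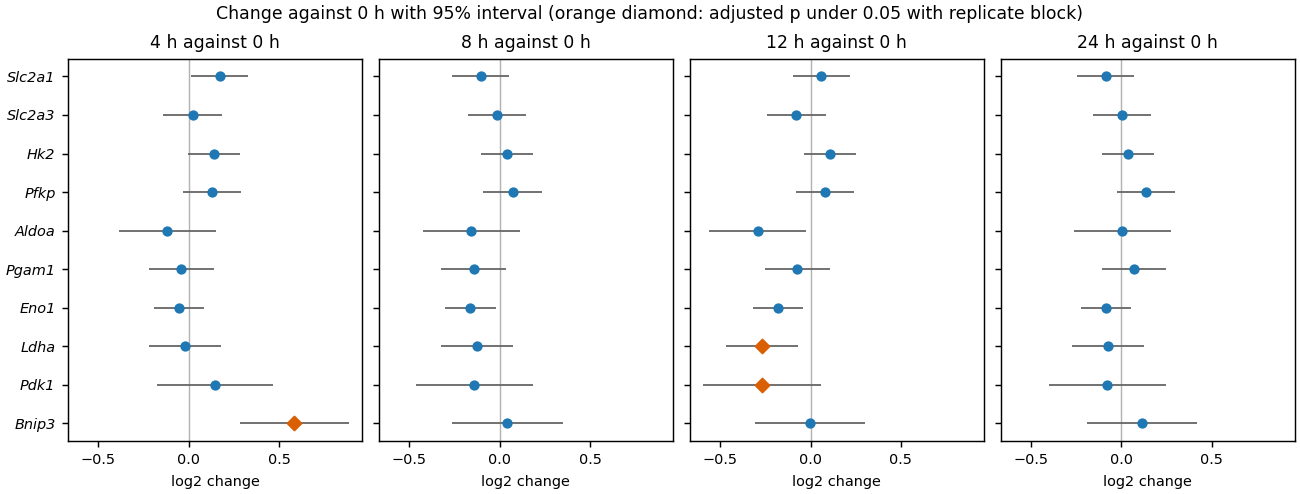
Log2 change of each gene against 0h at 4h, 8h, 12h and 24h with its 95% interval, from the model without the replicate block. Orange diamonds mark the 3 values with an adjusted p under 0.05 when the block was added. Bnip3 at 4h (0.58) was the largest of the 40 values, and at 24h all 10 intervals included 0.

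Bnip3 (chromosome 7, 138890836 to 138909506, minus strand) gave the largest change. In replicates 1 and 2 its levels were 19.6 and 19.0 (0h), 31.5 and 26.2 (4h), 21.3 and 18.4 (8h), 16.3 and 22.1 (12h), and 22.2 and 19.5 CPM (24h). The pair at 4h lay above every other sample, and the remaining times overlapped with 0h. The mean was 28.9 ± 3.73 CPM at 4h against 19.3 ± 0.409 CPM at 0h (SD, n = 2). The log2 change at 4h was 0.58 with a standard error of 0.14 (edgeR adjusted p = 1.0, and 0.027 with the replicate block). From 4h to 8h, a step that shares the 4h samples with the change above and so gives no separate support to it, the log2 change of Bnip3 was -0.54 (adjusted p = 0.814, and 0.0175 with the block, where the percent called was 0.241). With 333 to 604 counts per sample, Bnip3 was the most thinly counted of the 10. With the block, the 4h call was lost without either replicate of 0h (adjusted p = 1.0 and 0.146) or without replicate 1 of 4h (0.776), and DESeq2 with the block gave 0.469. The call from 4h to 8h was lost without replicate 1 (0.63) or 2 (0.0557) of 4h or replicate 2 of 8h (0.314). Summed fibroblast or feeder markers were at 3.99 CPM at 0h and 4.95 CPM at 4h, with a highest count of 71 for a single marker, and their part in this change was not tested.

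Neither glucose transporter passed the test against 0h, with or without the block. Slc2a1 (chromosome 4, 119108745 to 119137329, plus strand) had 299.0 and 294.2 (0h), 351.7 and 316.5 (4h), 287.8 and 263.3 (8h), 307.8 and 310.3 (12h), and 282.9 and 275.8 CPM (24h). Both samples at 4h and at 12h lay above 0h and both at 8h and 24h below it. The log2 change was 0.17 ± 0.07 (SE) at 4h, where the adjusted p was 1.0 without the block and 0.937 with it. Between 4h and 8h the difference was -0.28 ± 0.07 (SE), with an adjusted p of 0.843 (0.059 with the block). Slc2a3 (chromosome 6, 122727809 to 122742745, minus strand) stayed within 376.8 to 430.3 CPM, and its lowest and highest samples were the 2 replicates of 8h. Its change with the smallest p was -0.08 ± 0.08 (SE) at 12h.

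The enzymes of upper glycolysis, which prime and split the sugar, differed from 0h by at most 0.29 on the log2 scale, none of it past the test with all 10 samples. Hk2 (chromosome 6, 82725027 to 82774454, minus strand) had 376.4 and 370.6 CPM at 0h and 404.5 and 417.6 CPM at 4h, a log2 change of 0.14 ± 0.07 (SE). Its samples at 4h, 8h and 12h all lay above both 0h samples, and the highest of its 10 samples was 1.13 times the lowest, the narrowest range of the 10 genes. Pfkp (chromosome 13, 6579874 to 6648771, minus strand) ran from 383.9 to 438.2 CPM, with a log2 change of 0.14 ± 0.08 (SE) at 24h. Replicate 2 of Pfkp was below replicate 1 at 5 of 5 times. Aldoa (chromosome 7, 126795234 to 126800447, minus strand) had 147.3 and 118.7 (0h), 126.1 and 118.8 (4h), 105.0 and 133.5 (8h), 107.5 and 109.5 (12h), and 149.0 and 117.9 CPM (24h). Replicates of Aldoa lay far apart at 0h, 8h and 24h, so its change of -0.29 ± 0.13 (SE) at 12h rested on a baseline of unequal samples (adjusted p = 0.382, and 0.0607 with the block). Without replicate 1 of 0h that change was -0.13, and without replicate 2 it was -0.46. With the block, the change of Aldoa at 12h passed in 6 of the 10 fits that left out 1 sample, with adjusted p from 0.0087 to 0.71 over the 10.

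Enolase and phosphoglycerate mutase carry the chain on towards pyruvate. Eno1 (chromosome 4, 150237197 to 150248873, plus strand) had 470.7 and 461.5 (0h), 450.9 and 447.2 (4h), 414.7 and 418.5 (8h), 403.6 and 418.0 (12h), and 440.8 and 437.2 CPM (24h). All 8 samples with DOX were below both 0h samples. The log2 change of Eno1 was -0.16 ± 0.07 (SE) at 8h and -0.18 ± 0.07 (SE) at 12h, where the adjusted p was 0.281 (0.0975 with the block, and 0.037 in DESeq2 with the block). Pgam1 (chromosome 19, 41911871 to 41918665, plus strand) ran from 94.3 to 116.4 CPM and was lowest at 12h replicate 1 and highest at 24h replicate 1. Its change with the smallest p was -0.14 ± 0.08 (SE) at 8h. Processed copies of several glycolytic genes are known in the mouse genome, and how reads that fit a gene and its copy equally well were counted depends on the aligner, so the values of such genes are less certain.

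At the fate of pyruvate, Ldha and Pdk1 were lowest at 12h. Ldha (chromosome 7, 46845804 to 46855627, plus strand) had 89.5 and 83.0 (0h), 86.1 and 83.8 (4h), 72.6 and 85.3 (8h), 65.9 and 76.96 (12h), and 82.8 and 80.8 CPM (24h). Its 12h and 24h samples lay below 0h. The log2 change of Ldha was -0.27 ± 0.09 (SE) at 12h (adjusted p = 0.256, and 0.0328 with the block) and -0.08 ± 0.09 (SE) at 24h. Pdk1 (chromosome 2, 71873224 to 71903858, plus strand) had 37.1 and 46.9 (0h), 41.7 and 51.1 (4h), 34.0 and 42.2 (8h), 29.7 and 39.9 (12h), and 37.6 and 41.9 CPM (24h). Every time overlapped with 0h, and replicate 2 was the higher sample at 5 of 5 times. That replicate difference in Pdk1, noticed in the values and then read from the blocked fit, was 0.30 on the log2 scale (adjusted p = 6.5e-05, where 11.7% of all genes were called). At 12h the log2 change of Pdk1 was -0.27, with a standard error of 0.15 without the block and 0.08 with it (adjusted p = 0.515 and 0.0412). With the block, both 12h calls were lost without replicate 1 of 0h (Ldha 0.517, Pdk1 0.176) and without replicate 1 of 12h (0.595 and 0.5). The Pdk1 call was also lost without replicate 2 of 0h (0.147) or of 12h (0.0501). DESeq2 with the block gave 0.0796 for Ldha and 0.112 for Pdk1, and adjusting over autosomal genes only gave 0.0571 and 0.0678.

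From each time to the next after 0h, 0 of the 10 genes were called without the block (percent called over all genes 0 from 4h to 8h, 0 from 8h to 12h and 0.00688 from 12h to 24h). At an unadjusted p under 0.05 there were 2 (Bnip3 and Slc2a1), 1 (Slc2a1) and 1 (Aldoa), beside 2.31%, 4.4% and 9.02% of all genes. DESeq2 and limma-voom without the block called none of the 10 in these 3 steps. From 4h to 8h all 10 log2 changes were below 0, from -0.54 (Bnip3) to -0.04 (Slc2a3), with a median of -0.10. Over all genes the median of that step was 0.00 and 7491 of 14525 were above 0. The 10 genes share the same libraries and scaling and were chosen with earlier results of these data known. Their common direction is therefore no independent evidence. A slope over the 10 samples, in log2 per 24 h, ran from -0.17 (Pdk1) to 0.09 (Pfkp), and none was called (percent called over all genes 3.15, 0 of the 10 at an unadjusted p under 0.05 beside 13.2% of all genes, and 0 by DESeq2 and by limma-voom). The test of any difference among the 5 times called 0 of 10 in edgeR (percent called 1.25, smallest adjusted p 0.144 for Bnip3). At an unadjusted p under 0.05 there were 2, beside 8.45% of all genes. By DESeq2 that test called 1, Bnip3, where the percent over all genes was not computed, and by limma-voom 0. With the block it called Bnip3 (adjusted p = 0.00061), Pdk1 (0.00568) and Slc2a1 (0.0194), 3 of 10 beside a percent called of 6.12.

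Counting how many genes had both samples of a time outside the range of the 0h pair gave 4 above and 1 below at 4h, where 25% of all tested genes did not overlap. At 8h, 1 lay above and 3 below (30.2% of all genes not overlapping), at 12h, 2 above and 4 below (40.8%), and at 24h, 2 above and 3 below (36.3%).

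Reads over strain differences split each gene into its B6 and Cast copies. All 10 genes lie on autosomes, 6 chromosomes in all, and none is on the X. Each was transcribed from both copies in every sample, and the B6 share of allelic reads (the d-score) was below the autosomal median for 5 genes and above it for 5. The median autosomal gene had a d-score of 0.522 (11543 genes). Eno1 and Pdk1 leaned to Cast, with d-scores of 0.382 to 0.409 and 0.337 to 0.418 over the 10 samples. Bnip3 (0.581 to 0.667), Slc2a3 (0.589 to 0.615), Slc2a1 (0.568 to 0.602), Pfkp (0.554 to 0.588) and Hk2 (0.557 to 0.584) leaned to B6. Pgam1, Ldha and Aldoa lay between 0.470 and 0.531.

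The B6 to Cast ratio, scaled so that a typical gene is at 0 on the log2 scale, differed from 0 in all 10 genes, while 70% of the 11906 genes tested this way (10 or more allelic reads in each sample) were called. Pdk1 had the lowest ratio, -0.78 ± 0.04 (SE), and Eno1 had -0.74 ± 0.02 (SE). Bnip3 had the highest, 0.61 ± 0.06 (SE), followed by Slc2a3 at 0.49 ± 0.02 (SE). The smallest were -0.14 ± 0.03 (SE) for Aldoa, -0.16 ± 0.03 (SE) for Ldha and -0.18 ± 0.03 (SE) for Pgam1. A change of this ratio between 0h and 24h was called for 0 of the 10 (edgeR, percent called over all genes 2.65). Pfkp (0.14 ± 0.05 SE, adjusted p = 0.191) and Slc2a1 (-0.14 ± 0.06 SE, 0.342) had an unadjusted p under 0.05, as did 8.3% of all genes. The 95% intervals of that change lay between -0.38 and 0.46 for all 10 genes.

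**Figure D3:**
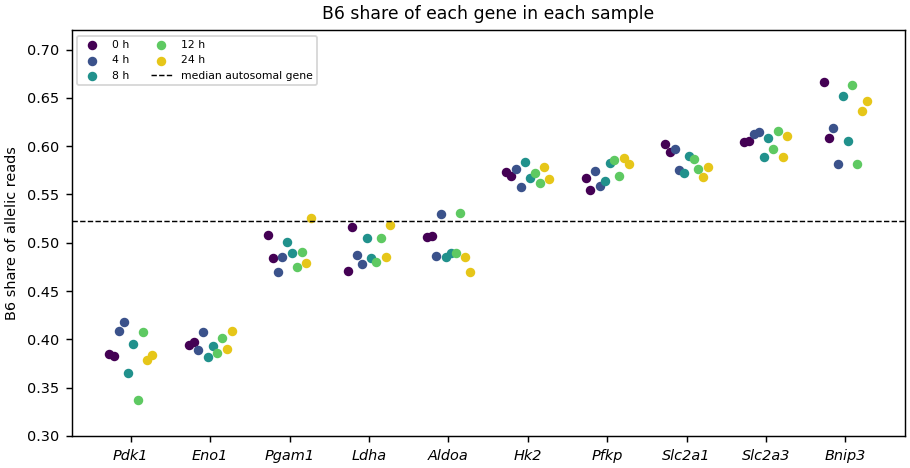
Share of allelic reads from the B6 copy (vertical axis, from 0.3 to 0.72) for each of the 10 genes, with 1 point per sample coloured by hours of DOX and a dashed line at the median autosomal gene (0.522). Pdk1 and Eno1 stayed below 0.42 in every sample and Hk2, Pfkp, Slc2a1, Slc2a3 and Bnip3 above 0.55.

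Other genes of the same pathways, with genes of pyruvate use among them, were set beside the 10 genes. Of 28 other glycolysis genes, 26 were tested, and 4 fell at 24h against 0h, Pgk1, Pdk3, Pfkfb1 and Pdha1, all on the X chromosome (percent of all genes called lower 1.54). Of the 502 X-linked genes tested other than Xist, 191 were called lower at 24h, beside 33 of the 14019 autosomal genes. None of the 22 autosomal genes of the glycolysis list was called at any time or by slope without the block. Pgk1 is phosphoglycerate kinase, the step just before Pgam1. It had 352.9 and 351.2 (0h), 354.2 and 324.0 (4h), 242.0 and 249.0 (8h), 221.8 and 244.2 (12h), and 264.5 and 240.5 CPM (24h). All 6 samples from 8h on lay below the 4 earlier ones. Its log2 change at 24h was -0.48 ± 0.08 (SE, adjusted p = 0.00255), and its d-score went from 0.485 and 0.456 at 0h to 0.195 and 0.222 at 24h. Pdk3, a relative of Pdk1, fell by 0.72 on the log2 scale (adjusted p = 9.51e-05). Pfkfb1, which makes an activator of phosphofructokinase, fell by 1.06 (0.00136), and Pdha1, a subunit of the pyruvate dehydrogenase that Pdk1 blocks, fell by 0.47 (0.00364). Without replicate 2 of 24h, only Pdk3 and Pfkfb1 of the 4 passed. The median log2 change at 24h was 0.03 for the 22 autosomal ones, 0.00 for the 10 genes, 0.01 for all genes and -0.50 for the 502 X-linked genes tested other than Xist.

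Among 24 other targets of the hypoxia response, 20 were tested and 1, Ndrg1, rose at 4h (percent of all genes called higher 0.0138, Xist and Ndrg1 being the 2 genes called). Ndrg1, a stress gene strongly raised by low oxygen, had 15.5 and 15.0 (0h), 29.1 and 26.0 (4h), 20.6 and 17.5 (8h), 17.7 and 19.9 (12h), and 15.9 and 16.2 CPM (24h). Both 4h samples lay above all the others, as for Bnip3. The log2 change at 4h was 0.85 ± 0.12 (SE, adjusted p = 0.0171, and 4.05e-06 with the block). Without the block it was lost when any replicate of 0h or 4h was left out, with adjusted p up to 0.543. From 4h to 8h it was -0.53 ± 0.11 (SE, adjusted p = 0.404, and 0.00657 with the block). That blocked call was lost without either replicate of 4h or without replicate 2 of 8h, with adjusted p up to 0.314. Of the 20 genes, 19 had a log2 change above 0 at 4h, with a median of 0.18, beside a median of 0.00 and 7295 of 14525 above 0 over all genes. Over left-out libraries the number above 0 ran from 16, without replicate 1 of 4h, to 19. With the block it ran from 17 to 20. By 24h, 10 of 20 were above 0 and the median was 0.00. The list was chosen with earlier results of these data known, so its direction is no independent evidence.

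The 11 genes of the HIF machinery itself encode HIF subunits and proteins that regulate HIF or act with it. All 11 were tested and none was called at any time or by slope without the block. The 2 with the largest slopes were Arnt2, a HIF partner subunit, at -0.31 log2 per 24 h, and Epas1, which encodes HIF2 alpha, at 0.22. With the block, 3 of the 11 were called in at least 1 test: Arnt2 at 24h (-0.37, adjusted p = 0.0151), Epas1 by slope (0.22, 0.0395) and Crebbp. Crebbp, a coactivator named here after its values were seen, was higher at 12h than at 0h (0.24, 0.0318) and lower at 24h than at 12h (-0.28, 0.0254), and it passed the test of any difference (0.0412). The percent of all genes called with the block was 4.94 at 12h, 5.32 at 24h and 1.48 from 12h to 24h. By slope it was 5.67 and in the test of any difference 6.12. The share of all genes called in at least 1 of these tests was not computed, so 3 of 11 does not single out this list.

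**Figure D4:**
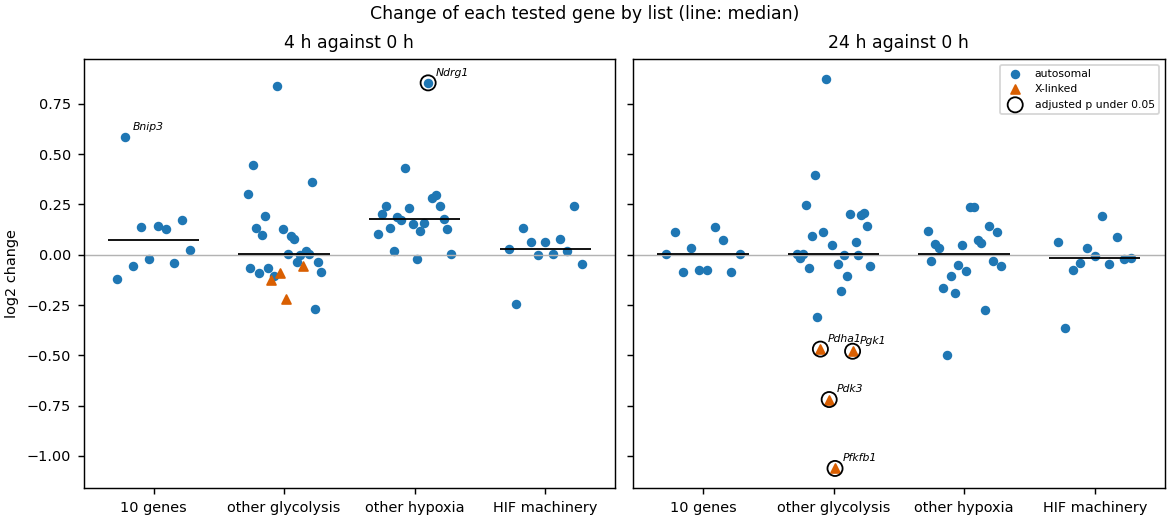
Log2 change at 4h and at 24h against 0h of each tested gene (1 point per gene, triangles for X-linked genes, circles around those with an adjusted p under 0.05, horizontal lines at the medians). At 4h, 19 of 20 other hypoxia genes lay above 0 with Ndrg1 at 0.85, and at 24h the 4 called genes were the X-linked Pgk1, Pdk3, Pfkfb1 and Pdha1.

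Over the 10 samples the 10 genes followed each other only in part. Of their 45 pairs, 31 had a positive Pearson correlation of log2 CPM, with a median of 0.297. Ldha and Eno1 were the most alike (0.809) and Pfkp and Pdk1 the least (-0.418). These values are a description, since all genes share the same libraries and the same scaling. The mean of the 10 standardised profiles was highest in the 2 samples of 4h (0.952 and 0.555) and lowest in replicate 1 of 8h (-0.791) and of 12h (-0.85), while replicate 2 of these times was at -0.161 and -0.213. Among 10142 other genes with a mean of at least 5 CPM, the 5 with the highest correlation to that mean over the 10 samples were Slc16a3 (0.909), 5730405O15Rik (0.895), Ppp1r3b (0.877), Gmpr (0.826) and Fancf (0.822). Slc16a3, the exporter of lactate MCT4, is also among the other glycolysis genes above. It was picked here for its likeness to the mean profile, so its own course over time gives no separate support. It went from 11.3 ± 0.184 CPM (0h) to 14.5 ± 2.66 CPM (4h) and was lowest at 9.21 ± 1.99 CPM after 12 h (SD, n = 2). Its log2 change of 0.36 ± 0.16 (SE) at 4h had an adjusted p of 1.0 without the block and 0.937 with it.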

How the data were processed

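TT-seq libraries from TX1072 cells at 5 times of DOX, 2 replicates each, were used as deposited. The paper's methods name Cutadapt, STAR on an N-masked mm10 genome, SNPSplit and featureCounts, and the submitters' processing notes name TopHat2 2.1.0, bedtools and featureCounts 1.5.1, so the aligner of these tables is not settled here. The authors deposited raw read counts per gene over the whole gene span, introns included and by strand, as total, B6 and Cast counts. They also deposited a fraction, B6 over B6 plus Cast counts (the d-score), which was recomputed from the counts here. The paper's methods state that spike-in RNAs were added before the RNA was purified. Neither scaling of the counts by these spike-ins nor removal of duplicates is stated. The counts used here therefore show only changes relative to the other genes. Deposited starts count from 0 and are printed from 1.

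Total counts were tested in R 4.3.3 with edgeR 4.0.16 (filterByExpr, TMM, quasi-likelihood test, all 10 samples, term for time), with adjustment by Benjamini-Hochberg over all 14525 genes, two-sided. CPM values use TMM library sizes, except the summed marker levels, which use the total counts without TMM. A slope used hours as a number. Allelic counts were tested as 20 columns with an intercept per sample. limma 3.58.1 and DESeq2 1.42.0, other scalings and filters and left-out libraries were alternatives. The functions were tested on simulated data without the replicate block and with no replicate effect. The blocked fits were not tested in this way. Replicate numbers from the labels were checked for pairing: deviations of same-numbered samples correlated in all 10 pairs of times (r 0.142 to 0.281), so blocked values are given where a call changes. The d-scores did not pair (r -0.012 to 0.046).

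The 10 genes, the other gene lists and the tests were chosen with earlier results of these data known. Named from each list were the genes called against 0h or by slope (up to 6), otherwise the 2 with the largest slopes, and the 5 genes most like the mean profile of the 10. Promoter sequences are from RefSeq (GRCm38.p6, the same build as mm10) and exons from GENCODE. The depth gave 333 to 10177 counts per sample for these genes.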

Additional observations from a re-analysis of the deposited data

How the results depend on the processing

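Without the replicate block, 0 of the 40 changes of the 10 genes against 0h passed the test under any scaling, tool, filter, pair of times or left-out library, and neither did any slope or step. The test of any change called 1 gene, Bnip3, in DESeq2, with no filter on low counts and without replicate 2 of 12h. Of the 40 changes, 19 changed sign under at least 1 alternative, all of them at most 0.158 on the log2 scale in size. Aldoa at 4h ranged from -0.274 to 0.0546 over left-out libraries. The unequal alleles of all 10 genes and the absence of a called ratio change held under each alternative, the replicate block included. The block, which pairs same-numbered samples, gave 1 called gene at 4h and 2 at 12h against 0h, 1 from 4h to 8h, 3 in the test of any change and 1 HIF machinery gene at 24h. Alternatives added after the data were seen combined it with other choices. Adjusted over autosomal genes only, the block gave 1 gene at 4h, 3 in the test of any change and 1 HIF machinery gene, and 0 at 12h and from 4h to 8h. X-linked genes leave that adjustment by construction, so the 4 other glycolysis genes lower at 24h became 0 with and without the block. In limma-voom the block gave 1 at 4h, 2 at 12h, 2 from 4h to 8h, 3 in the test of any change and 1 HIF machinery gene. In DESeq2 it gave 0 at 4h, 1 at 12h (Eno1, in place of Ldha and Pdk1), 1 from 4h to 8h (Slc2a1) and 3 in the test of any change. Over left-out libraries, with and without the block, the counts ran from 0 to 1 at 4h, 0 to 1 at 8h, 0 to 3 at 12h, 0 to 2 from 4h to 8h, 0 to 1 from 8h to 12h, 0 to 1 from 12h to 24h and 0 to 5 in the test of any change. For the lists they ran from 0 to 1 for other hypoxia genes higher at 4h, from 2 to 4 for other glycolysis genes lower at 24h and from 0 to 1 for the HIF machinery. A left-out library leaves 1 sample at its time, which is assumed to vary like the others. The cause of these shifts was not tested. The percent of all genes called was computed only for the main edgeR fit, with and without the block. Counts under the other settings have no such share beside them, so they do not single out these genes.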

Other observations

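With the replicate block, further autosomal pathway genes passed the test against 0h that the choice by rule had left out, and they were picked out after their values were seen. Of the 22 other autosomal glycolysis genes, 2 were called at 12h and 1 at 24h, and of the 20 other hypoxia genes 1 at 12h and 2 at 24h, while 3.12% of all autosomal genes were called at 12h and 3.31% at 24h. At 24h Hk1, a hexokinase that binds mitochondria, was higher (log2 0.40, edgeR adjusted p = 0.00325), as were the hypoxia genes Kdm3a, a histone demethylase (0.24, 0.0275), and Mxi1, a MYC antagonist (0.24, 0.0314). Kdm3a was also higher at 12h (0.30, 0.00551). At 12h Tpi1, triosephosphate isomerase (-0.41, 0.0204), and Ldhb, the second lactate dehydrogenase subunit (-0.35, 0.048), were lower. Replicate 1 of 12h was the lowest sample of both Tpi1 and Ldhb. The replicates of Ldhb lay far apart, at 21.3 ± 6.54 CPM (0h) and 16.8 ± 7.45 CPM (12h, SD, n = 2). Of Hk1, Kdm3a, Mxi1, Tpi1 and Ldhb, none was called without the block. How the blocked calls of these 5 depend on single samples was not examined.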
